A study of Mus musculus with 4 samples.

Results

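Chemokines and their receptors form a gene family of 67 symbols in the RefSeq annotation of the mouse assembly GRCm38.p6, and 57 of these genes had a probe on the arrays. Members were all genes whose array accession maps to a symbol of the form Ccl, Cxcl, Ccr, Cxcr or Ackr with a number, or to Cx3cl1, Cx3cr1, Xcl1 or Xcr1. They carried 72 of the 41174 non-control probes, 15 genes with 2 probes and 42 with 1, and the probe with the highest mean over the 4 arrays stood for a gene. By role, 34 were ligands, 19 signalling receptors and 4 atypical receptors. The other 10 symbols, among them Cxcl11, Ccl21b and Ccl26, were matched by no probe accession and were not analysed here.

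RNA came from endothelial cells of adult mouse hearts and was labelled with Cy3 for 1-colour Agilent arrays. Control arrays, 2 in number, are from wild type animals, and 2 arrays labelled G2-EC-KO are from animals that the labels describe as a Gata2 knock out. The product of Gata2 is a DNA-binding factor that acts in blood progenitors and in endothelium. The strain, the age beyond adult, the driver of the deletion and the way the cells were isolated are not given in the sources used here, nor is it said whether each array holds the RNA of 1 animal or of a pool. Replicates are not stated to come from separate animals. The Control arrays differ in sex, as given below, so they hold RNA of different animals. Between the G2-EC-KO arrays the scatter may be technical, and p-values reflect no more than how far these 4 samples scatter. All 4 arrays lay on 1 slide, with Control and G2-EC-KO at different positions, so position and group cannot be told apart.

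Levels are given as log2 signal minus the 75th percentile of the array, so that 0 is the level of a probe at that percentile. At one probe Gata2 read 1.86 and 2.18 in Control against 2.17 and 2.46 in G2-EC-KO, so the groups overlapped (log2 change 0.29, SE 0.18; adjusted p = 0.586 by limma). The other probe read 1.54 and 1.75 against 1.72 and 1.91 (0.17, SE 0.14). Where these probes lie relative to the deleted part is not given in the sources used here, so they do not check the labels. For the labelled cell type, 15 of 15 endothelial genes, among them the VEGF receptor gene Flt1, were well above background on every array. Their median level was 5.52 to 5.62 by array, against at most 4.18 in the other cell type lists. Markers of other cell types were also measured: 17 of 17 macrophage and monocyte genes, 12 of 12 fibroblast genes, 14 of 14 cardiomyocyte genes and 11 of 11 pericyte and smooth muscle genes were well above background on all 4 arrays. The brightest in these lists were Lyz1 and Cd14, Gsn and Dcn, Actc1 and Myl2, and Acta2 and Tagln, as Flt1 and Mmrn2 were for endothelium. Lymphocyte and granulocyte genes reached this on all 4 arrays for 10 of 14 and 4 of 10, with Cd3g, Cd8a, Ncr1, Elane, Camp and Cpa3 well above it on none, and Lck, Cd79b, S100a9 and S100a8 brightest. Of 6 mesothelial genes 2 reached it on all 4 arrays, led by Wt1 and Krt19. Sex-linked genes set Control replicate 2, with male RNA, apart from the other arrays, with female RNA. Sex was thus not balanced between the groups, and the gap between the Control arrays includes a difference of sex. The Y-linked gene Ddx3y read 2.38 on Control replicate 2 and between -8.00 and -6.99 on the other arrays, where it was not well above background, and Xist read -7.82 on Control replicate 2 and between 3.93 and 3.96 elsewhere. In such bulk samples fewer cells of a type and less RNA per cell cannot be told apart.

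Chemokines are small secreted proteins that guide leukocytes along gradients by binding G protein-coupled receptors. They are named for the spacing of their first cysteines, as CC, CXC, CX3C and XC ligands, and the receptors take their names from the ligands they bind. Endothelial cells both make chemokines and display them on the vessel wall, bound to heparan sulfate, and some vessels carry atypical receptors that take up or transport ligands without G protein signalling.

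The start regions of 6 members are shown because transcription of inflammatory chemokine genes is known to run through NF-kappaB and interferon-activated factors, and because the deleted gene encodes a GATA factor. They are the 250 bases before the start of transcription in RefSeq, GRCm38.p6, written 5′ to 3′ on the strand of the gene. Capitals mark matches, on either strand, to the kappaB motif, to the interferon-stimulated response element GAAANNGAAA (ISRE) and to the GATA motifs, namely AGATAA or AGATAG, and also TGATAA or TGATAG. The first 4 are CXC ligands, and the last 2 are Ccl12, the member with the smallest p below, and its receptor gene Ccr2.
Cxcl1, chr5:90890995-90891244, plus strand: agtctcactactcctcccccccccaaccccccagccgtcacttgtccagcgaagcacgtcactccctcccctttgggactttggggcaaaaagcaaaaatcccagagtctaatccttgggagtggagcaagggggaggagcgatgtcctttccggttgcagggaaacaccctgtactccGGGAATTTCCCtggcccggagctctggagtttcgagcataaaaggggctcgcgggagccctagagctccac
Cxcl2, chr5:90903649-90903898, plus strand: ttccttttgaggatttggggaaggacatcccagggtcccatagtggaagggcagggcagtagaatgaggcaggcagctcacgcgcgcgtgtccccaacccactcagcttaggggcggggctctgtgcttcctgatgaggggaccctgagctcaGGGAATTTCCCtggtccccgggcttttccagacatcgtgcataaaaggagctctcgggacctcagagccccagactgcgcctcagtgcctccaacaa
Cxcl3, chr5:90785851-90786100, plus strand: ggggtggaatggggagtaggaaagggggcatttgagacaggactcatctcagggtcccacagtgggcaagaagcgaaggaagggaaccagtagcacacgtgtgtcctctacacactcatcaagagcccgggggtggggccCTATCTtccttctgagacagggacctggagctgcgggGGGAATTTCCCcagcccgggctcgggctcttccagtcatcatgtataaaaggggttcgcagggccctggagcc
Cxcl10, chr5:92348890-92349139, minus strand: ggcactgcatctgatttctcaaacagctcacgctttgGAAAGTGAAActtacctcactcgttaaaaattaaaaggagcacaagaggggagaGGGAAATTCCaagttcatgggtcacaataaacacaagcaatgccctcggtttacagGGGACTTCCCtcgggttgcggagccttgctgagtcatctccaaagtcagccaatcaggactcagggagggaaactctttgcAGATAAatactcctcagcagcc
Ccl12, chr11:82101595-82101844, plus strand: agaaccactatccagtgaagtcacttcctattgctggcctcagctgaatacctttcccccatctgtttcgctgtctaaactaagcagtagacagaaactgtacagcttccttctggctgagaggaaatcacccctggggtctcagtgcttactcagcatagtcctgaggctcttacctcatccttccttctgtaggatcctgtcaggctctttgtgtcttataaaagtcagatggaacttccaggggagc
Ccr2, chr9:124101933-124102182, plus strand: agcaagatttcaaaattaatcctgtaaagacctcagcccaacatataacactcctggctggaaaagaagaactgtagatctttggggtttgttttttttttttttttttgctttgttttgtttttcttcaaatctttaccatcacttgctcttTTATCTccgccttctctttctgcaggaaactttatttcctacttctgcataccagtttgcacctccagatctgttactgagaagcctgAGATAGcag
In Cxcl1, Cxcl2 and Cxcl3, which are neighbours in the genome, the same run GGGAATTTCCC lay 71 to 61, 97 to 87 and 73 to 63 bases before the start, where the kappaB motif matches on both strands in overlap. Cxcl3 also held a GATA match from 110 bases before the start and Ccr2 matches 97 to 92 and 9 to 4 bases before it, and Ccl12 held none of the motifs. Cxcl10 held a GATA match 22 to 17 bases before the start, an ISRE match, GAAAGTGAAA, 213 to 204 bases before the start, and separate kappaB matches 159 to 150 and 103 to 94 bases before it. Windows of this length were on file for 44 of the 57 members, 48 windows in all. The kappaB motif was found in 18.8% of them against 3.9% of all 32851 windows, the ISRE in 6.25% against 2.98% and a GATA motif in 31.2% against 26.5%. A match describes the letters of a window and is not a binding site.

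No chemokine or receptor gene differed between the groups past the threshold. Of the 57 genes, 40 were well above background on at least 2 arrays and were tested, 27 ligands, 9 signalling receptors and all 4 atypical receptors, and 0 of the 40 passed an adjusted p of 0.05 (limma, Benjamini-Hochberg over all 26894 probes tested). Over all probes the share called was 0.00372%. At an unadjusted p under 0.05, 3 members were higher in G2-EC-KO and 0 lower (limma), against 4.9% and 4.73% of all probes in these directions, so that 3 of 40 is near the background of 9.63%. One of the 3, Ccr2, passed the filter on dim probes through the G2-EC-KO arrays alone, which favours that direction, and 2 of the other 39 remained. The count rested on single arrays: without Control replicate 2 it was 11 of 40, or 27.5%, against 5.38% of all probes, and without G2-EC-KO replicate 1 it was 6 of 40 against 20.8%. In these fits a group is 1 array, assumed to vary like the other group. Control replicate 2 is the only array with male RNA. Without it the Control array left is replicate 1, the lowest of the 4 arrays at 16 of 40 members, against 24.8% of all probes tested. The part of sex or of that array in the count was not tested. The median log2 change of the 40 was 0.04, with 22 above 0 and 18 below, beside a median of -0.0020 over all probes, of which 49.6% were above 0. Groups did not overlap at 13 of 40 members, 8 with G2-EC-KO above and 5 with Control above, and at 46.4% of all probes, 23.8% with G2-EC-KO above and 22.6% with Control above. Without Ccr2 this was 12 of 39.

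**Figure D1:**
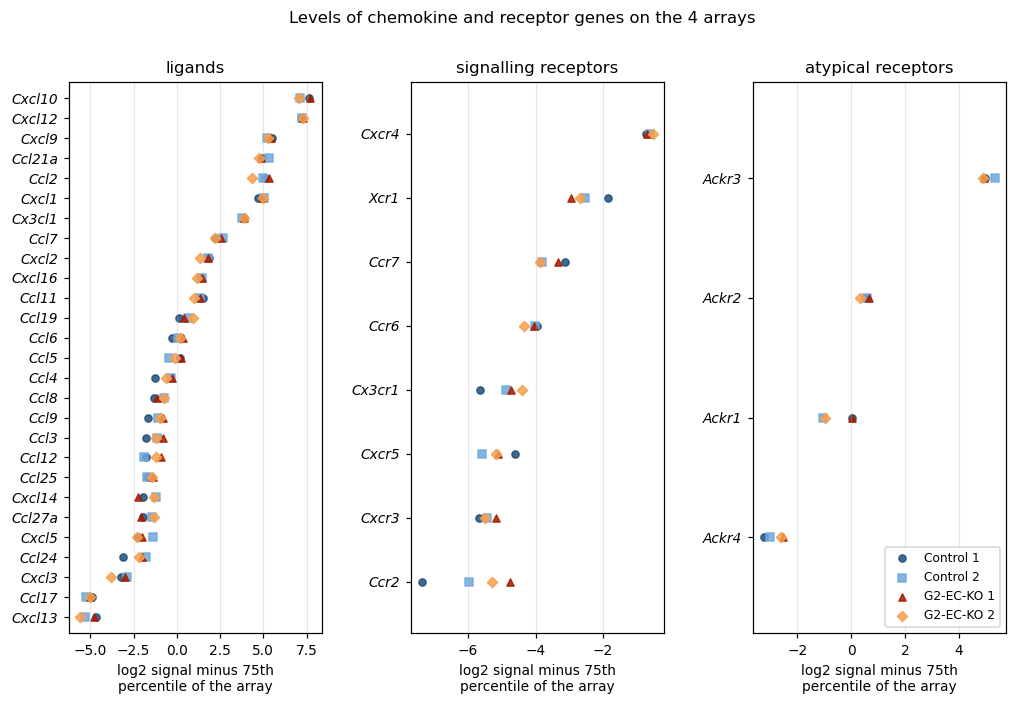
Level of 39 tested chemokine and receptor genes on the 4 arrays, as log2 signal minus the 75th percentile of the array, for 27 ligands, 8 signalling receptors and 4 atypical receptors. Each symbol is 1 array, positions of different genes are not compared, and the symbols of Cxcl12 and Cx3cl1 nearly coincide while those of Ccr2 are spread between -7.36 and -4.76.

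Several ligands known from endothelium had narrow intervals around no difference. Cxcl12, the ligand of CXCR4 that holds progenitor cells and leukocytes in tissue, read 7.18 and 7.26 in Control and 7.30 and 7.32 in G2-EC-KO. Both G2-EC-KO values lay just above both Control values, by a log2 change of 0.09 (SE 0.11; adjusted p = 0.746 by limma), with a 95% confidence interval from -0.19 to 0.38. Its second probe, on another transcript accession, gave 0.08 (SE 0.11). Cx3cl1, or fractalkine, a chemokine tethered to the cell membrane, read 3.88 and 3.77 in Control and 3.87 and 3.86 in G2-EC-KO, a log2 change of 0.04 (95% confidence interval -0.25 to 0.33). Cxcl16, the other membrane-tethered ligand, read 1.34 and 1.43 against 1.47 and 1.18 (log2 change -0.06, 95% confidence interval -0.44 to 0.32). In these 3 genes the interval leaves out a log2 change of 0.5 in either direction, as it did in 8 of the 40 members. The share of all probes was not counted, and their median SE of 0.14 was below the 0.24 of the members.

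The interferon-inducible CXCR3 ligands, which draw activated T cells, overlapped between the groups. Cxcl9 read 5.53 and 5.24 in Control and 5.43 and 5.25 in G2-EC-KO (log2 change -0.05, SE 0.15). Cxcl10 read 7.67 and 7.13 in Control and 7.73 and 7.07 in G2-EC-KO, with group means of 7.40 ± 0.38 (SD, n = 2) and 7.40 ± 0.47 (SD, n = 2). The replicate 1 arrays were thus the higher ones in both groups, and the gap within each group was many times the difference between the means. Its interval, -0.79 to 0.79, is therefore wide. In the interferon response list, which includes Isg15, 0 of 13 tested genes passed at either p (limma), with a median log2 change of -0.08. The replicate 2 arrays were the low ones there too. Of its 13 tested genes 5 were lowest on Control replicate 2 and 8 on G2-EC-KO replicate 2, against 22% and 32.1% of all probes tested. Among its genes with the smallest p were Stat2 at -0.42, Irf9 at -0.23 and Isg15 at -0.26 (smallest adjusted p = 0.553).

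CXCR2 ligands, which recruit neutrophils, had lower values on G2-EC-KO replicate 2 for 3 of their 4 members. Cxcl2 read 1.83 and 1.81 in Control and 1.82 and 1.35 in G2-EC-KO. Cxcl3 read -3.26 and -2.91 against -3.00 and -3.82, and Cxcl5 read -2.26 and -1.37 against -2.02 and -2.31. Cxcl1 read 4.71 and 5.02 against 4.95 and 4.96, with its lowest value on Control replicate 1. The log2 changes were -0.24 (SE 0.18), -0.33 (SE 0.31), -0.35 (SE 0.32) and 0.09 (SE 0.15), and the groups overlapped in all 4 genes. The NF-kappaB and cytokine response list moved with them by array: 13 of its 17 genes were lowest on G2-EC-KO replicate 2, against 32.1% of all probes tested, and their median level there was 2.75 against 3.28 to 3.38 on the other arrays. Its members with the smallest p were the prostaglandin synthase gene Ptgs2, at 0.35 (SE 0.14), the NF-kappaB subunit gene Rela, at -0.41 (SE 0.19), the cytokine gene Il1b, at 0.27 (SE 0.13), and the adhesion molecule gene Icam1, at -0.45 (SE 0.27). None of the 17 passed (limma, smallest adjusted p = 0.533), and 0 had an unadjusted p under 0.05. Without G2-EC-KO replicate 2 the log2 changes were -0.01 for Cxcl2, 0.08 for Cxcl3 and -0.20 for Cxcl5. Other lists set this array apart too: 10 of 11 pericyte and smooth muscle genes were lowest on it, with a summed linear level of 258 against 315 to 360, and the sum of the cardiomyocyte genes was 178 on it against 119 to 124. Their part in the values of the CXCR2 ligands was not tested.

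The remaining CXC ligands were dim or uneven within groups. Cxcl13, which attracts B cells, had a log2 change of -0.20 (SE 0.36) and Cxcl14, a broadly expressed epithelial and stromal chemokine, one of -0.21 (SE 0.40). Cxcl14 read -1.94 and -1.22 in Control and -2.25 and -1.32 in G2-EC-KO, so that arrays of one group lay farther apart than the group means. Cxcl15 and Cxcl17 were not well above background on any array. Over the 10 tested CXC ligands 2 log2 changes were above 0 and 8 below, with a median of -0.13, and over the 16 tested CC ligands 12 were above 0 and 4 below, with a median of 0.26. No CXC ligand and 1 CC ligand had an unadjusted p under 0.05 (limma), and the difference between these classes was not tested.

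The lowest p among the members belonged to Ccl12, a monocyte chemoattractant that signals through CCR2. It read -1.79 and -1.89 in Control and -0.92 and -1.23 in G2-EC-KO. Both G2-EC-KO values lay above both Control values, by more than the gap within either group. The means were -1.84 ± 0.07 (SD, n = 2) and -1.08 ± 0.22 (SD, n = 2), a log2 change of 0.76 or 1.69-fold (SE 0.15 on the log2 scale, 95% confidence interval 0.36 to 1.15, adjusted p = 0.387 by limma). Leaving out 1 array moved the log2 change between 0.60 and 0.91. The genes beside it in the genome had log2 changes between -0.25 and 0.09. Ccl2, the best known monocyte chemoattractant, read 5.08 and 4.97 in Control and 5.35 and 4.32 in G2-EC-KO, with the lowest and the highest value in the same group (log2 change -0.19, SE 0.36). Ccl7 had a log2 change of -0.05 (SE 0.22) and -0.05 at its second probe, Ccl8 one of 0.09 (SE 0.26), and the eosinophil attractant Ccl11, at 1.51 and 1.33 against 1.32 and 1.01, one of -0.25 (SE 0.16). Ccl1, of the same neighbourhood, was not well above background on any array.

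**Figure D2:**
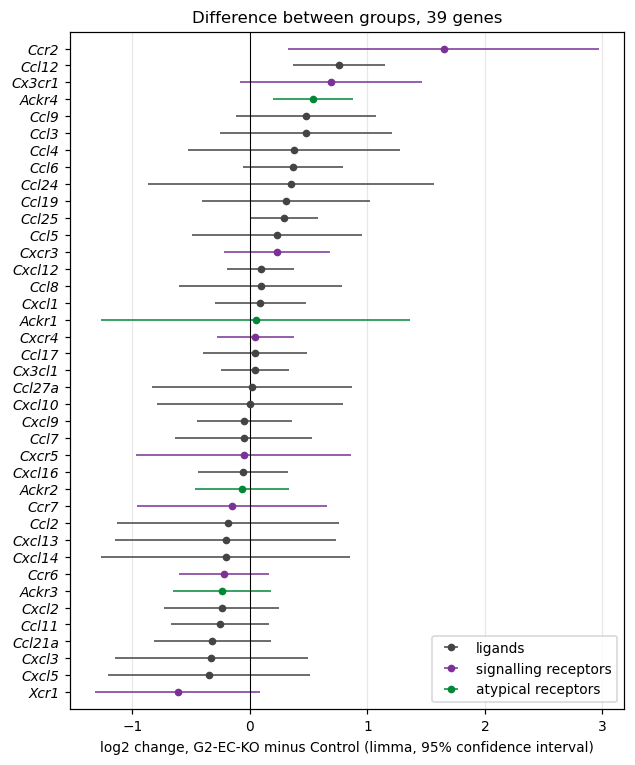
Log2 change of 39 tested genes, G2-EC-KO minus Control, with limma's 95% confidence interval, ordered by size and coloured by role. The interval lies wholly above 0 for Ccl12 and Ackr4, neither of which passed after adjustment over all probes. Ccr2 is plotted, but its interval is not read, because its Control signals were not well above background.

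Ccl3, Ccl4, Ccl5, Ccl6 and Ccl9, inflammatory chemokines made largely by myeloid and T cells whose genes are neighbours, all had log2 changes above 0. Ccl3 read -1.81 and -1.16 in Control and -0.79 and -1.21 in G2-EC-KO (log2 change 0.48, SE 0.28), and Ccl4 read -1.28 and -0.36 against -0.26 and -0.63 (0.38, SE 0.34). Ccl9 read -1.66 and -1.07 against -0.81 and -0.96 (0.48, SE 0.23), and Ccl6 read -0.26 and 0.04 against 0.36 and 0.16 (0.37, SE 0.16). In all 4 of these genes Control replicate 1 was the lowest array. Ccl5, which T cells and platelets carry, read 0.20 and -0.48 against 0.27 and -0.09 (0.23, SE 0.27), with Control replicate 2 lowest. None passed (limma, smallest adjusted p of the 5 genes 0.540, for Ccl6). Without Control replicate 1 the log2 changes of Ccl3, Ccl4, Ccl9 and Ccl6 were 0.15, -0.08, 0.19 and 0.22.

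Macrophage and monocyte markers had the same array at the bottom. Of their 17 tested genes 15 were lowest on Control replicate 1, as were 8 of 12 fibroblast genes and 24.8% of all probes tested, and their summed linear level was 15.4 there, 21.1 on Control replicate 2, and 21.2 and 19.4 in G2-EC-KO. Their median log2 change was 0.32, with 16 above 0, 1 below and 0 past the threshold (limma, smallest adjusted p = 0.512). The lysozyme gene Lyz1 and the endotoxin coreceptor gene Cd14 read 1.52 and 2.07 against 2.13 and 1.76, and 1.10 and 1.55 against 1.54 and 1.28. At Ccl12 the Control arrays lay close together, at -1.79 and -1.89, and without Control replicate 1 the log2 change was 0.81. The part of these markers in the differences of the chemokine genes, Ccl12 among them, was not tested.

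**Figure D3:**
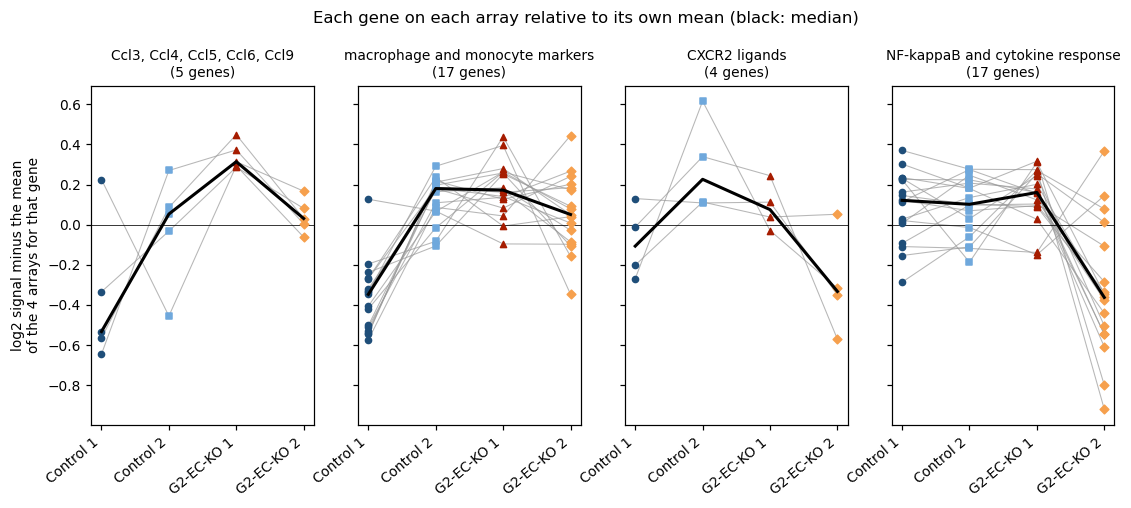
Level of each gene on each array relative to the mean of that gene over the 4 arrays, for the 5 neighbouring genes Ccl3, Ccl4, Ccl5, Ccl6 and Ccl9, 17 macrophage and monocyte markers, 4 ligands of CXCR2 and 17 genes of the NF-kappaB and cytokine response list, with the median in black. The first pair of panels is lowest on Control replicate 1 and the second pair on G2-EC-KO replicate 2.

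The other CC ligands serve lymphoid homing and barrier tissues. Ccl21a, which lymphatic endothelium makes to guide dendritic cells and T cells through CCR7, read 4.90 and 5.35 in Control and 4.88 and 4.74 in G2-EC-KO (log2 change -0.32, SE 0.19, and -0.09 without Control replicate 2). Its near-identical copies Ccl21b and Ccl21c may share the probe, so this value is uncertain as to the copy. Ccl19, the other CCR7 ligand, read 0.11 and 0.64 against 0.42 and 0.96 (0.31, SE 0.27, and 0.05 without Control replicate 1 or 0.04 without G2-EC-KO replicate 2). Ccl25, a ligand of CCR9 known from thymus and gut, read -1.70 and -1.71 against -1.36 and -1.47, without overlap. Its log2 change was 0.29 (SE 0.11; adjusted p = 0.522 by limma), and the other probe of the gene, also without overlap, gave 0.53 (SE 0.16; adjusted p = 0.471). Ccl24, an eosinophil attractant of tissue macrophages, read -3.13 and -1.79 in Control and -2.02 and -2.20 in G2-EC-KO. Control replicate 1 again stood lowest, and the log2 change of 0.35 (SE 0.46) became -0.32 without it. Ccl27a (0.02, SE 0.32) and the CCR4 ligand Ccl17 (0.04, SE 0.17) overlapped between the groups, and Ccl20, Ccl22 and Xcl1 were not well above background on any array.

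Among signalling receptors Ccr2, the receptor of Ccl2, Ccl7 and Ccl12 on inflammatory monocytes, was well above background in one group only. It read -7.36 and -5.97 in Control, not well above background, and -4.76 and -5.28 in G2-EC-KO, where it was. Set against the lowest signals called well above background, the G2-EC-KO mean was higher by at least 1.5-fold. The adjusted p was 0.471 by limma. Ccr2 was tested only because of the G2-EC-KO arrays. Its fitted change rests on Control signals not well above background, so its value is not printed here as an estimate. The fit still enters the counts over the members, the adjusted p above and the plots of log2 changes and of gaps between arrays. At its second probe, -6.28 and -5.80 against -5.40 and -6.01, only G2-EC-KO replicate 1 was well above background and the groups overlapped.

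Cx3cr1, the fractalkine receptor of monocytes and macrophages, read -5.65 and -4.88 in Control and -4.73 and -4.42 in G2-EC-KO (log2 change 0.69, SE 0.29; limma, adjusted p = 0.537). Control replicate 1 was the lowest array and the 1 array not well above background, and without it the change was 0.31. The second Cx3cr1 probe was not well above background on any array. Xcr1, known from cross-presenting dendritic cells, stood on the other side, at -1.85 and -2.54 in Control and -2.95 and -2.68 in G2-EC-KO. Its groups did not overlap, and the log2 change was -0.61 (SE 0.26; limma, adjusted p = 0.539), or -0.27 without Control replicate 1 and -0.96 without Control replicate 2, while its second probe was not well above background on any array. Cxcr4, the receptor of Cxcl12 on endothelial tip cells and leukocytes, was well above background throughout, at -0.72 and -0.60 against -0.70 and -0.53 (0.05, SE 0.12), and its second probe gave 0.22 (SE 0.11).

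Of the tested receptors known from lymphocytes, Ccr6 had groups that did not overlap, and Ccr7, Cxcr3 and Cxcr5 overlapped. Ccr7 of naive T cells read -3.12 and -3.81 against -3.35 and -3.88 (-0.15, SE 0.31), and Ccr6 read -3.94 and -4.01 against -4.05 and -4.35 (-0.22, SE 0.14). Cxcr3 (0.23, SE 0.17) was well above background on 3 arrays, as was the B cell receptor Cxcr5 (-0.05, SE 0.34). Cxcr6, on G2-EC-KO replicate 1, and Ccr10, on Control replicate 2, were well above background on 1 array each, and Ccl28, a ligand of CCR10, on Control replicate 2 as well. The receptors Ccr1, Ccr1l1, Ccr3, Ccr4, Ccr8, Ccr9, Cxcr1 and Cxcr2 were well above background on 0 arrays at the probe with the highest mean, among them both neutrophil receptors for the CXCR2 ligands, while a second Ccr3 probe reached it on Control replicate 1. The 11 tested lymphocyte markers had 2 log2 changes above 0 and 9 below (median -0.09).

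All 4 atypical receptors were well above background on every array. Ackr4, which clears Ccl19, Ccl21 and Ccl25, read -3.22 and -3.00 in Control and -2.54 and -2.60 in G2-EC-KO. Both G2-EC-KO arrays lay above both Control arrays, and the difference exceeded the gap within each group. The change was 0.54 on the log2 scale, or 1.45-fold (SE 0.13, interval 0.20 to 0.88, adjusted p = 0.404 by limma), and ranged from 0.43 to 0.65 when 1 array was left out. Ackr3, the scavenger of Cxcl12, read 4.97 and 5.32 against 4.92 and 4.90 (-0.24, SE 0.16), and without Control replicate 2 the change was -0.06. Ackr2, which degrades inflammatory CC ligands and is known from lymphatic endothelium, read 0.51 and 0.60 against 0.64 and 0.33 (-0.07, SE 0.15).

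Ackr1, the Duffy antigen receptor that marks venular endothelium and red cells, separated the arrays within each group. It read 0.03 and -1.05 in Control and 0.04 and -0.96 in G2-EC-KO, so that both replicate 1 arrays were high and both replicate 2 arrays low. Its second probe gave -0.96 and -2.10 against -0.94 and -1.93, the same order. The group means were -0.51 ± 0.76 (SD, n = 2) and -0.46 ± 0.71 (SD, n = 2), and the log2 change of 0.05 (SE 0.50) had a 95% confidence interval of -1.27 to 1.36. In the red cell genes Hba-a1 and Alas2 replicate 1 also read above replicate 2 within each group. The haemoglobin gene Hba-a1 read 6.40 and 6.19 against 7.18 and 6.26, and the haem synthesis gene Alas2 0.91 and 0.61 against 1.69 and 0.29. Alas2 was lowest on G2-EC-KO replicate 2, and Ackr1 on Control replicate 2. The brightest granulocyte genes had replicate 1 above replicate 2 too. S100a9 read 3.36 and 2.43 against 3.53 and 2.96, and S100a8 read 0.88 and -0.02 against 0.95 and 0.35. Mpo of that list ran the other way, at -5.16 and -4.83 against -5.78 and -5.10. The part of these genes in the Ackr1 values was not tested.

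Gaps of this size were rare over all probes. The Control arrays differed by more than 1 at 4 of 40 tested members, among them Ackr1, Ccl24 and Ccr2, and at 1.64% of all probes. The G2-EC-KO arrays differed by more than 1 at 2 members, Ackr1 and Ccl2, and at 2.28% of all probes. The median gap between the Control arrays was 0.46 over the members and 0.12 over all probes, and between the G2-EC-KO arrays 0.31 and 0.18. Over the members the SE had a median of 0.24, and over all probes of 0.14. The difference between the group means exceeded both gaps at 6 of 40 members, against 30.8% of all probes. These were Ackr4, Ccl12, Ccl25, Ccl6 and Cxcl12, and Ccr2, whose Control values were not well above background. Without Ccr2, which was tested only because of the G2-EC-KO arrays, the count was 5 of 39. Dim untested members showed such gaps too, as Cxcr2 did at -5.96 and -7.87, Ccl28 at -7.29 and -5.53 and Ccr1l1 at -7.63 and -6.46 in Control.

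**Figure D4:**
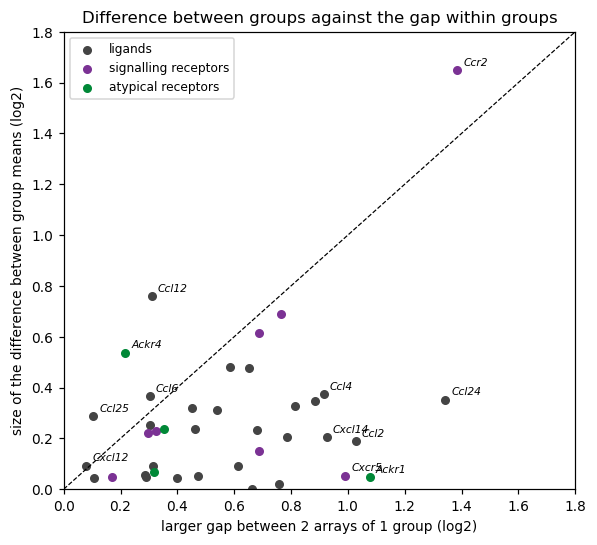
Size of the difference between group means against the larger of the 2 gaps between arrays of one group, on the log2 scale, for 39 tested genes. The 6 genes above the dashed line of equality are Ackr4, Ccl12, Ccl25, Ccl6 and Cxcl12, and Ccr2, whose Control values were not well above background, and genes with a gap over 0.9 are also named.

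Genes that transmit or shape chemokine signals gave no call. Of 26 measured genes of receptor signalling 25 were tested, 14 with a log2 change above 0 and 11 below, with a median of 0.05, and 0 passed (limma, smallest adjusted p = 0.448). The smallest p belonged to Rgs1, a regulator that ends G protein signals in leukocytes, at -3.83 and -3.37 against -3.00 and -2.78 (log2 change 0.71, SE 0.20), followed by the PI3K-gamma adaptor gene Pik3r5 (-0.30, SE 0.11), the leukocyte Rac activator gene Dock2 (0.67, SE 0.28) and the G protein subunit gene Gng2 (0.28, SE 0.13). Of 14 genes that present or cleave chemokines 8 were above 0 and 6 below, with a median of 0.01 and 0 past the threshold (limma, smallest adjusted p = 0.387). There Dpp4, a protease that trims the ends of Cxcl12 and other chemokines, read -3.03 and -2.82 against -2.33 and -2.21, a log2 change of 0.65 (SE 0.13). Ndst1, an enzyme that sulfates heparan sulfate, read 2.02 and 1.96 against 1.69 and 1.31 (-0.49, SE 0.16), and Gpc1 (0.23, SE 0.11) and Ndst2 (-0.23, SE 0.11) followed. Immediate early genes, which many stimuli induce within minutes, had a median log2 change of 0.06 over 15 genes, with Klf6 at 0.56 (SE 0.18), Egr1 at 0.18, Jun at 0.23 and Fos at 0.20, and 0 past the threshold (limma, smallest adjusted p = 0.491).

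Chemokine genes that carry other symbols were read beside the members. Pf4, a platelet chemokine also made by some macrophages, read 1.49 and 2.06 in Control and 2.32 and 2.24 in G2-EC-KO (log2 change 0.50, SE 0.22). Ppbp, another platelet chemokine, read -2.82 and -1.40 against -1.37 and -1.25 (0.80, SE 0.48). Control replicate 1 was the lowest array for both, as it was for all 5 tested platelet markers, among them Gp9 at -3.61 and -2.26 against -1.87 and -2.31 and Treml1 at -3.71 and -2.72 against -2.13 and -2.44. The 7 tested platelet and erythroid genes all had log2 changes above 0, with a median of 0.44 and 0 past the threshold, and their part in Pf4 and Ppbp was not tested. Ccrl2, an atypical receptor for chemerin, read 2.47 and 2.14 against 2.45 and 1.71 (-0.22, SE 0.29), chemerin itself, Rarres2, had a log2 change of 0.05 (SE 0.11), and its receptor Cmklr1 one of -0.16 (SE 0.12). None of these 5 genes passed (limma, smallest adjusted p = 0.539).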

How the data were processed

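Total RNA of 4 samples was measured on 1-colour Agilent arrays of design 014868. Scanner output came from Feature Extraction 10.7.3.1, per the file headers; the submitters' processing notes give 10.5. The headers name mm9. The authors deposited spot intensity values on a linear scale, from which the scanner software had taken background and a spatial trend, and a table whose values equal the median spot signal less the local background plus 16.

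Here control spots and outlier spots were left out, the processed signal was put on the log2 scale relative to the 75th percentile per array, and repeated spots were averaged. Probes well above background on at least 2 of 4 arrays were tested. The fit used limma 3.58.1 in R 4.3.3 on group alone, two-sided, with Benjamini-Hochberg adjustment over 26894 probes, 2 residual and 2.58 prior degrees of freedom. For 2 arrays against 2, the smallest two-sided p of an exact permutation test is 0.333. The number of arrays limits the precision. Symbols came from RefSeq accessions for 26933 of 41174 probes. Where a group had no array well above background, the fold is a lower bound, computed with each dim array set to its lowest signal well above background, or to the probe itself where that was higher.

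The members, lists and tests were chosen with earlier results of these data known. The rule named the 12 members with the highest signal, those with an unadjusted p under 0.05, those well above background in one group only and those whose Control arrays differ by more than 1. Up to 4 genes with the smallest p were named per pathway list, and the 2 brightest per marker list. Other members are named to account for them. Results on 1 member and 1 pathway gene are not reported here, though both stay in the counts. Sex-linked genes and the genes printed with sequence were chosen after the values were seen. Of the lists, Cd68, Ly6g, Hbb-b1, Arrb2, Adam10, Nfkb1, Mx1 and Darc, an older symbol of Ackr1, matched no probe here. Alternatives changed the background correction, normalization, filter, source of values, variance model, block and arrays used. Normexp used the median spot signal in place of the mean that had been planned.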

Additional observations from a re-analysis of the deposited data

How the results depend on the processing

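Under every alternative run on all 4 arrays, 0 of the chemokine and receptor genes passed an adjusted p of 0.05 (limma). Under every alternative run their median log2 change stayed between 0.018 and 0.10. The median level of the tested members varied between arrays of one group by a pooled SD of 0.234, which is a spread of levels and not of changes. The count with an unadjusted p under 0.05, 3 genes, was 6 with normexp background correction (15.0%, against 10.3% of all probes), 5 with no filter on dim probes (8.77% against 6.35%), 5 with an intensity trend (12.5%, against 2817 of 26894 probes) and 3 to 11 when 1 array was left out. It was 11 without Control replicate 2 (27.5% against 5.38%) and 6 without G2-EC-KO replicate 1 (15.0% against 20.8%), where the lone array of a group is assumed to vary like the other group. Groups did not overlap at 20 genes with no filter, where 57 were tested, against 13. The share of all probes was not counted in that setting. The added genes were well above background on fewer than 2 arrays, so 20 is not read as more separation. Over all probes the count past the threshold was 2 with normexp, quantile normalization or median centring, 0 with no filter, a filter on all 4 arrays, an intensity trend or the replicate block, and 0 to 8 when 1 array was left out. The labels do not say that replicate numbers pair samples, and the gaps between replicates 1 and 2 of the groups correlated at 0.044 over 26883 probes. With the replicate block 4 of 40 members had an unadjusted p under 0.05 (limma), against 2697 of 26883 probes, and 0 members passed. The members' share was thus near that of all probes. Of 39 genes, 17 kept the sign of their log2 change under every alternative run, among them Ccl12, Ackr4 and Xcr1. Cxcl13 turned to 0.055 and Cxcr5 to 0.10 with normexp, Cxcl10 to 0.02 with median centring and 0.00043 with the deposited value table, and Cxcr5 to 0.0028 there. The cause was not tested. Leaving out 1 array turned the sign of 22 genes, whose log2 changes then ranged as follows: Ccl24 -0.32 to 1.02, Ccl27a -0.36 to 0.40, Ccl4 -0.082 to 0.83, Ccl8 -0.21 to 0.40, Ccr7 -0.49 to 0.19, Cxcl1 -0.068 to 0.25, Cxcl10 -0.33 to 0.33, Cxcl13 -0.60 to 0.19, Cxcl9 -0.19 to 0.097, Cxcr4 -0.038 to 0.13, Cxcr5 -0.55 to 0.44, Ackr1 -0.49 to 0.59, Ccl17 -0.15 to 0.24, Ccl5 -0.11 to 0.57, Ccl7 -0.29 to 0.19, Cx3cl1 -0.011 to 0.097, Cxcl14 -0.67 to 0.26, Cxcl5 -0.79 to 0.097, Ackr2 -0.23 to 0.089, Ccl2 -0.70 to 0.33, Cxcl16 -0.20 to 0.085, Cxcl3 -0.73 to 0.081. With 2 arrays a group, a dim probe such as Ccr2 has only a bound in Control.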
